A study of Homo sapiens with 6 samples.

Results

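The genes described here encode 10 enzymes of nucleotide synthesis, chosen by name: 6 of the purine branch (PPAT, GART, PFAS, PAICS, ATIC and IMPDH2) and 4 of the pyrimidine branch (CAD, DHODH, UMPS and CTPS1). They are 10 of the 60728 genes counted, each name matched 1 gene identifier, and all 10 passed the filter on low counts, which left 15548 genes. The study measured RNA by sequencing in JJN3, an established human multiple myeloma cell line labelled as wild type, grown in DMEM and IMDM with fetal bovine serum. The 3 groups, each of 2 libraries, were a DMSO vehicle control and WNK463 applied for either 2 h or 6 h. WNK463 blocks the WNK kinases, which regulate ion transport across the cell membrane. The labels conflict on its dose, with 5 µM in the treatment protocol and 1 µM in the description of the series, and state no collection time for the DMSO cells, so treatment and time in culture cannot be told apart. A single cell line was used, and it is not stated that the libraries of a group came from separate cultures. The p-values therefore cover the spread between these libraries alone, which may be technical.

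Cells make nucleotides either by building the ring anew or by salvaging bases and nucleosides. Purines are assembled on activated ribose phosphate until inosine monophosphate is reached, from which AMP and GMP are made. Pyrimidines are made the other way round, the ring first and the ribose added to it afterwards. Proliferating cells need both for RNA, DNA and energy carriers, and many of these enzyme genes are known targets of the transcription factor MYC, which is highly active in myeloma.

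Counts assigned to genes ran from 18013790 to 24002291 per library. Levels are given as CPM, the count of a gene divided by its library's TMM-scaled total and put on one common scale. The members had between 379 counts (DHODH) and 11972 counts (PAICS) in a library, so counting error was small for all 10. Of 9 plasma cell markers all were tested, with a summed level of 1797 to 1912 CPM over the libraries. At 6 h 3 of them were called higher on the log2 scale, PRDM1 (0.42), JCHAIN (0.17) and SLAMF7 (1.15). Another 3 were called lower, XBP1 (-0.33), IRF4 (-0.28) and MZB1 (-0.24). Over all genes tested, 18.0% were called higher and 18.6% lower at 6 h. Of 5 B cell markers only PAX5 was tested, CD22 had no count, and PAX5 was called lower at 6 h (-1.15). Markers of T and NK cells (0 of 5 tested), myeloid cells (2 of 5), erythroid cells (1 of 4) and stromal cells (0 of 5) summed to at most 2.06 CPM per list in any library, with CD3D, HBB and LUM at 0. The sum of 5 epithelial markers, 4 of them tested, was 102 CPM in both DMSO libraries, 126 and 129.7 CPM at 2 h, and 119 and 126 CPM at 6 h. EPCAM carried most of it and KRT19 was at or near 0, while 1 of them, CDH1, was called higher at 6 h (1.07). These 8 genes were named after their values were seen. The call of JCHAIN did not hold without DMSO replicate 1, 6 h replicate 1 or 6 h replicate 2 (adjusted p up to 0.243). The call of MZB1 did not hold without DMSO replicate 1, 6 h replicate 1 or 6 h replicate 2 (adjusted p up to 0.692). The call of PAX5 did not hold without DMSO replicate 2 or 6 h replicate 1 (adjusted p up to 0.149). That of MZB1 was also lost under other scalings. The part of any of them in the results was not tested. In bulk RNA, fewer cells expressing a gene and less RNA per cell cannot be told apart.

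At 6 h all 10 enzymes were lower than in DMSO, in both libraries of every gene, whereas at 2 h only DHODH and UMPS were called lower. The log2 changes at 6 h ran from -0.33 for GART to -1.05 for DHODH, with a median of -0.50 against -0.00 over all genes tested. The transcripts thus stood at between 48.5% and 79.8% of their DMSO level. The members' summed level was 2071 CPM in each DMSO library, 1978 and 1997 CPM at 2 h, and 1434 and 1419 CPM at 6 h, so the 6 h sum was 68.9% of that in DMSO. The threshold for a call was an adjusted p of 0.05 in edgeR's quasi-likelihood test, with Benjamini-Hochberg adjustment across the 15548 genes. The members were chosen by name with earlier results of these data known, so their counts are a description and not independent of those results. At 6 h, 10 of 10 members were called lower and 0 higher, beside 18.6% and 18.0% of all genes (36.6% in either direction). At 2 h, 2 of 10 were called lower and 0 higher, beside 8.32% and 8.68% (17.0% in either direction). Of all genes tested, 4.86% had a lower log2 change at 6 h than DHODH and 25.1% a lower one than GART. Both 6 h libraries lay below both DMSO libraries in 10 of 10 members and above them in 0, against 33.1% and 32.7% of all genes. The 2 h libraries lay below both DMSO libraries in 6 members (27.4% of all genes), above them in 1 (27.1%) and among them in 3.

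**Figure D1:**
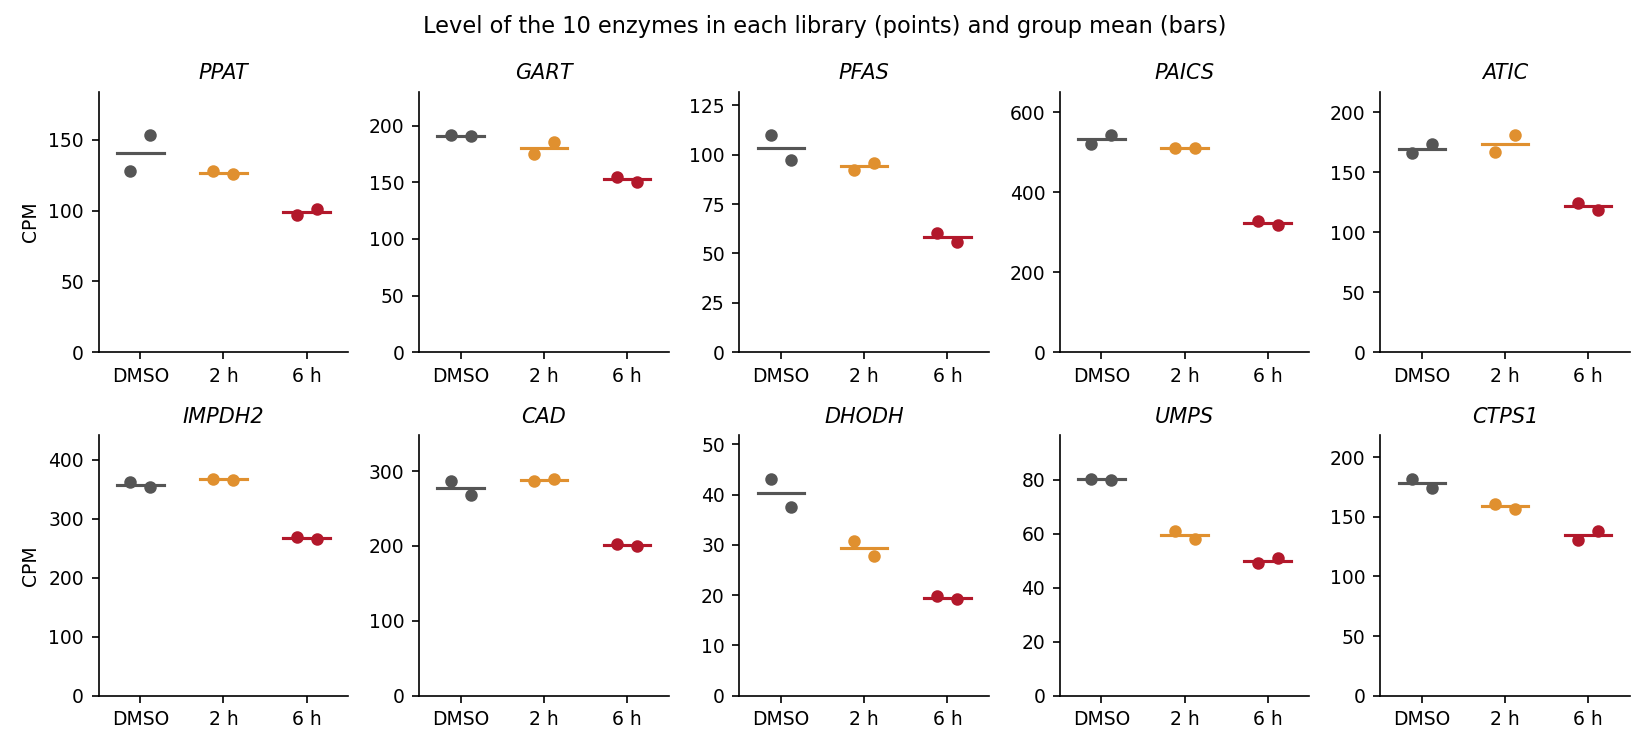
Level of each enzyme gene in CPM (vertical axes, each from 0) in the DMSO, 2 h and 6 h groups. Points are libraries and bars are means of 2 libraries. In all 10 panels both 6 h points lie below all DMSO and 2 h points, and only some panels show a step at 2 h.

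PPAT and PAICS are neighbours on chromosome 4, read away from each other, and their nearest RefSeq starts (build GRCh38.p14) are separated by 136 bases. This stretch is shown because 2 members share it: chr4:56435616-56435751, given on the minus strand towards PPAT, with capitals marking the letters CCGCCC, the GC box as read on this strand.
PPAT-PAICS: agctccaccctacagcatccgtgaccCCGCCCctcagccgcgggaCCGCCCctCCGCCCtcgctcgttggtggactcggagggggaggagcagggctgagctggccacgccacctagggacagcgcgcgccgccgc
It holds 3 GC boxes (GGGCGG or CCGCCC). Promoter windows of 250 bases before to 50 after a start were found for 9 of the 10 members (all but IMPDH2), 14 windows in all. GC boxes occurred in windows of 8 of the 9 genes, and 75.4% of 10836 tested genes with such a window had 1 as well. The NF-Y box (CCAAT, or ATTGG on the other strand) occurred in 3 of 9, against 42.8%. The E-box CACGTG, which reads the same on both strands and is the letters that MYC binds with its partner MAX, occurred in 4 of 9 members (PPAT, PAICS, ATIC and DHODH), against 12.5% of those genes. The E-box of PPAT, at position -182 from its start, is the same 6 bases as that of PAICS, at position 41 after its start.

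These E-boxes are given below with 12 bases on each side and the E-box in capitals. They are shown because windows of these 4 members held E-boxes and those of the other 5 with a window held none. Sequence outside the windows was not searched, so an E-box further into a gene would not have been found.
PPAT-PAICS E-box: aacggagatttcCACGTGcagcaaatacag
ATIC upstream E-box: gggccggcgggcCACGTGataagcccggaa
ATIC downstream E-box: ctcctacctgcgCACGTGgtgccgccgctg
DHODH E-box: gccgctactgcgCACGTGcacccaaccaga
They lie, in this order, at chr4:56435780-56435809 on the minus strand, chr2:215312001-215312030 and chr2:215312076-215312105 on the plus strand (positions -46 and 30 from the ATIC start) and chr16:72008573-72008602 on the plus strand (position -159). Positions are counted from RefSeq starts, which can differ from the gene starts printed below. By the latter, both ATIC E-boxes lie inside the gene and the DHODH E-box spans the gene start. A match is a description of letters, and binding was not measured in these data.

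**Figure D2:**
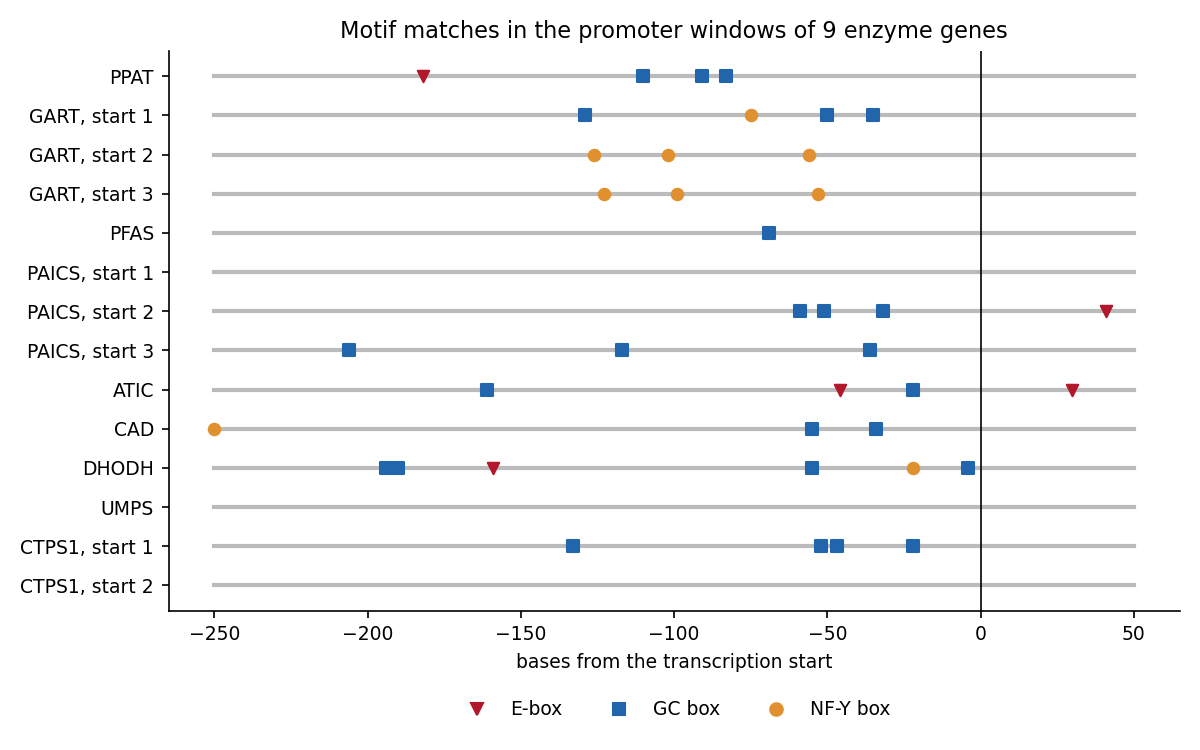
Motif matches along each promoter window, in bases from the transcription start (horizontal axis, 0 is the start), for the 14 windows of 9 members. Triangles mark E-boxes, squares GC boxes and circles NF-Y boxes. E-boxes appear in the windows of PPAT, PAICS, ATIC and DHODH.

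The first enzyme of the purine branch is the amidotransferase encoded by PPAT (ENSG00000128059.8, chromosome 4 from 56393362 to 56435615, minus strand), which commits ribose phosphate to purine synthesis. PPAT was counted at 128 and 153 CPM in the DMSO libraries, 128 and 126 CPM at 2 h and 96.8 and 101 CPM at 6 h. DMSO replicate 1 lay between the 2 h libraries and DMSO replicate 2 above them, while both 6 h libraries were below all others. The log2 change was -0.15 ± 0.0785 SE, adjusted p = 0.204 at 2 h and -0.51 ± 0.0794 SE, adjusted p = 1.06e-06 at 6 h (edgeR). The 2 h change rested on which DMSO library was used: without DMSO replicate 1 it was called (-0.27, adjusted p = 0.00345).

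PAICS encodes the bifunctional enzyme that carries out the carboxylation and the aspartate addition in the middle of the purine branch, and it starts beside PPAT (ENSG00000128050.8, chromosome 4 from 56435741 to 56464579, plus strand). PAICS was counted at 521 and 542 CPM in the DMSO libraries, 509 and 511 CPM at 2 h and 328 and 319 CPM at 6 h. The 2 h libraries were just below those of DMSO, and the 6 h libraries were far below both. Its level at 6 h was 60.8% of that in DMSO (-0.72 ± 0.0569 SE, adjusted p = 2.74e-14), and its 2 h change was -0.06 ± 0.0562 SE, adjusted p = 0.534. Of the neighbours that share the stretch printed above, PAICS thus stood at -0.72 and PPAT at -0.51, and the difference between these changes was not tested.

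GART encodes a trifunctional enzyme of the purine branch (ENSG00000159131.17, chromosome 21 from 33503931 to 33543491, minus strand), 1 of whose activities adds a formyl group from folate. GART was counted at 191 and 191 CPM in the DMSO libraries, 175 and 186 CPM at 2 h and 155 and 150.2 CPM at 6 h. The groups did not overlap, although the 2 h libraries came close to DMSO. GART fell at 6 h (-0.33 ± 0.0686 SE, adjusted p = 1.45e-04), and this was the smallest of the 10 changes. Its 2 h change was -0.09 ± 0.0681 SE, adjusted p = 0.445.

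PFAS encodes the synthase that brings in nitrogen from glutamine ahead of ring closure (ENSG00000178921.14, chromosome 17 from 8247618 to 8270491, plus strand). PFAS was counted at 109.8 and 97.1 CPM in the DMSO libraries, 92.2 and 96.0 CPM at 2 h and 60.5 and 55.7 CPM at 6 h. The 2 h libraries were below those of DMSO by less than the DMSO libraries differed from each other, and the 6 h libraries stood apart from both groups. PFAS fell at 6 h to 56.2% of its DMSO level (-0.83 ± 0.0867 SE, adjusted p = 7.86e-11), the largest fall of the purine branch, against -0.13 ± 0.0843 SE, adjusted p = 0.304 at 2 h.

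ATIC encodes the enzyme that adds the last formyl group and closes the ring to inosine monophosphate (ENSG00000138363.15, chromosome 2 from 215311956 to 215349773, plus strand). ATIC was counted at 166 and 173 CPM in the DMSO libraries, 167 and 181 CPM at 2 h and 124 and 119 CPM at 6 h. The 2 h and DMSO libraries overlapped, and both 6 h libraries were lower. The log2 change was 0.04 ± 0.0707 SE, adjusted p = 0.797 at 2 h and -0.48 ± 0.0716 SE, adjusted p = 3.88e-07 at 6 h.

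IMPDH2 encodes the dehydrogenase that turns inosine monophosphate towards GMP (ENSG00000178035.12, chromosome 3 from 49024325 to 49029408, minus strand), the rate-limiting reaction of guanine nucleotide synthesis. IMPDH2 was counted at 362 and 353 CPM in the DMSO libraries, 367 and 366 CPM at 2 h and 268 and 266 CPM at 6 h. It was the 1 member whose 2 h libraries were both above DMSO, and this change was not called (0.04 ± 0.0591 SE, adjusted p = 0.748). At 6 h it fell (-0.42 ± 0.0595 SE, adjusted p = 1.43e-07).

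The pyrimidine branch opens with CAD, whose single protein joins the first reactions, carbamoyl phosphate synthesis to dihydroorotate (ENSG00000084774.14, chromosome 2 from 27217369 to 27243943, plus strand). CAD was counted at 287 and 269 CPM in the DMSO libraries, 287 and 289.6 CPM at 2 h and 202 and 199.9 CPM at 6 h. The 2 h libraries overlapped DMSO at its upper end, and both 6 h libraries were lower. CAD changed by 0.05 ± 0.0624 SE, adjusted p = 0.641 at 2 h and fell by 6 h (-0.47 ± 0.0631 SE, adjusted p = 4.97e-08).

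DHODH, the mitochondrial enzyme that oxidises dihydroorotate to orotate and the target of inhibitors such as brequinar, changed most (ENSG00000102967.12, chromosome 16 from 72008588 to 72027664, plus strand). DHODH was counted at 43.1 and 37.6 CPM in the DMSO libraries, 30.8 and 27.8 CPM at 2 h and 19.8 and 19.3 CPM at 6 h. The 3 groups stood apart in the order DMSO, 2 h and 6 h. DHODH was called lower at 2 h (-0.46 ± 0.119 SE, adjusted p = 0.00437) and at 6 h (-1.05 ± 0.123 SE, adjusted p = 1.90e-09), when it was at 48.5% of its DMSO level. The 2 h call of DHODH was lost without DMSO replicate 1 (adjusted p = 0.0567) and without 2 h replicate 2 (adjusted p = 0.110), while the 6 h call held with each library left out in turn.

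UMPS encodes the bifunctional enzyme that joins orotate to ribose phosphate and decarboxylates the product to UMP, the parent pyrimidine nucleotide (ENSG00000114491.14, chromosome 3 from 124730433 to 124749273, plus strand). UMPS was counted at 80.3 and 79.9 CPM in the DMSO libraries, 61.1 and 57.9 CPM at 2 h and 48.9 and 51.0 CPM at 6 h. Its DMSO libraries were nearly equal, both 2 h libraries were well below them, and both 6 h libraries were lower again. UMPS was called lower at 2 h (-0.43 ± 0.0904 SE, adjusted p = 4.33e-04) and at 6 h (-0.68 ± 0.0916 SE, adjusted p = 4.57e-08), and the 2 h call held with each library left out in turn.

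CTPS1 encodes the CTP synthase that lymphoid cells depend on to proliferate (ENSG00000171793.16, chromosome 1 from 40979688 to 41012565, plus strand). CTPS1 was counted at 182 and 174 CPM in the DMSO libraries, 161 and 157 CPM at 2 h and 131 and 138 CPM at 6 h. The 3 groups did not overlap. Its 2 h change missed the threshold (-0.17 ± 0.0699 SE, adjusted p = 0.0992), except without DMSO replicate 2 (adjusted p = 0.0368) and with library size alone as the scaling (adjusted p = 0.0431). CTPS1 fell at 6 h (-0.41 ± 0.0705 SE, adjusted p = 7.61e-06).

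**Figure D3:**
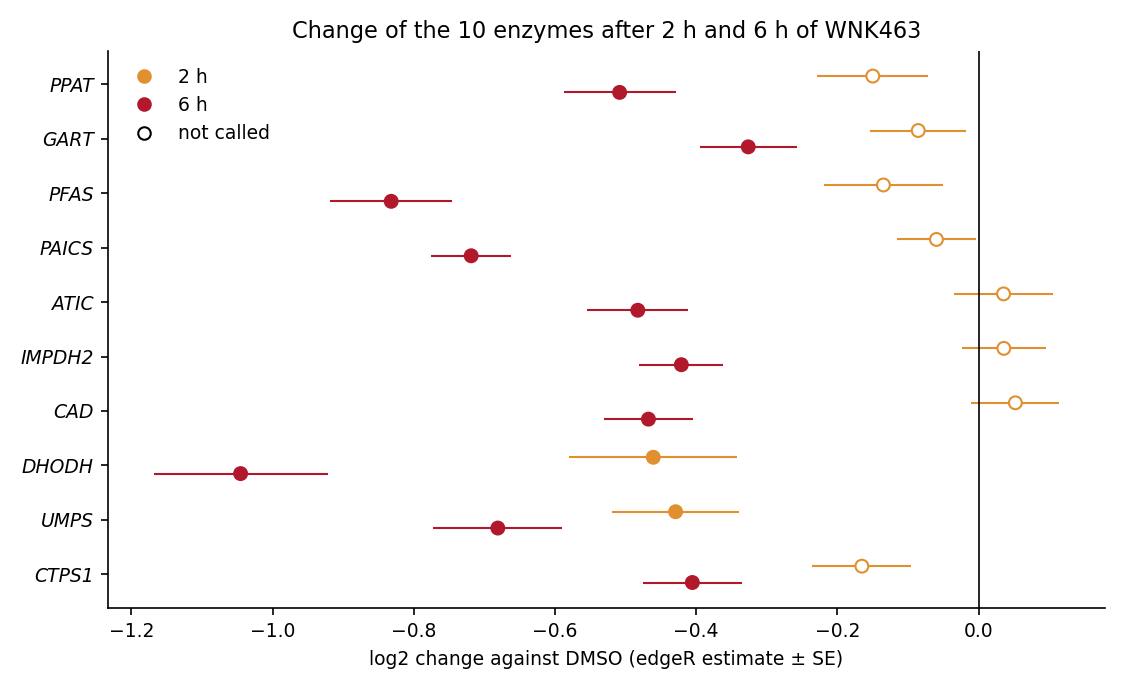
Log2 change against DMSO (horizontal axis, edgeR estimate with its SE as bars) at 2 h and 6 h for each member. Filled points were called at an adjusted p under 0.05 and open points were not. All 10 changes at 6 h are called and lie between -1.05 and -0.33, whereas at 2 h only those of DHODH and UMPS are.

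The comparison of 6 h with 2 h tests directly whether the later level differed from the earlier one. All 10 members were called lower at 6 h than at 2 h, and 0 higher, beside 13.1% and 11.1% of all genes (24.3% in either direction). Both 6 h libraries lay below both 2 h libraries in all 10 and above them in 0 (30.2% and 31.8% of all genes). Of all genes called in this comparison 45.9% were higher, and 61.3% with library size alone as the scaling. The falls between the times were largest for PFAS (-0.70 ± 0.0867 SE, adjusted p = 2.04e-08), PAICS (-0.66 ± 0.0568 SE, adjusted p = 1.36e-12) and DHODH (-0.58 ± 0.125 SE, adjusted p = 3.09e-04). They were smallest for CTPS1 (-0.24 ± 0.0705 SE, adjusted p = 0.00873), GART (-0.24 ± 0.0686 SE, adjusted p = 0.00682) and UMPS (-0.25 ± 0.0923 SE, adjusted p = 0.0394). These 3 smallest calls depended on single libraries. Without 2 h replicate 2 or 6 h replicate 1 none of them was called, without 2 h replicate 1 GART alone of the 3 was, and without 6 h replicate 2 CTPS1 alone was. The highest adjusted p for CTPS1, GART and UMPS was 0.181, 0.166 and 0.250. With library size alone as the scaling these 3 were not called either (adjusted p of 0.0614, 0.0524 and 0.139). The levels at 2 h as a share of DMSO differed between the enzymes. At 2 h UMPS stood at 74.3% and DHODH at 72.7% of DMSO, CTPS1, PPAT, PFAS, GART and PAICS at between 89.2% and 96.0%, and ATIC, IMPDH2 and CAD at between 102% and 104%. The comparisons share libraries with each other, those against DMSO the DMSO libraries.

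Levels of different genes were compared per length, as TPM, which divides each count by the exonic length in the deposited table and scales every library to the same sum. In DMSO the order was IMPDH2 at 468 ± 10.9 TPM (SD, n = 2), PAICS at 257 ± 5.35, ATIC at 163 ± 3.71 and CAD at 119.6 ± 6.49. PPAT (93.9 ± 11.2 TPM) and GART (89.6 ± 0.678 TPM) followed with overlapping libraries, as did PFAS (58.1 ± 5.42 TPM) and CTPS1 (58.0 ± 2.09 TPM). UMPS (38.7 ± 0.366 TPM) and DHODH (21.2 ± 2.21 TPM) were lowest. IMPDH2 was above 98.6% of the genes tested and DHODH above 59.3%. At 6 h no neighbours in the order overlapped. GART then stood above PPAT and CTPS1 above PFAS, at 73.5 ± 2.22, 68.0 ± 1.57, 45.0 ± 1.43 and 33.5 ± 2.26 TPM in that order. The genes with the lowest levels, DHODH and UMPS, were those called at 2 h.

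For IMPDH2 and CTPS1 a second gene encodes an isozyme. IMPDH1 had 238 ± 14.6 TPM in DMSO and 139 ± 1.18 TPM at 6 h, and fell by more than IMPDH2 as estimated (-0.81 ± 0.0680 SE, adjusted p = 1.38e-13), a difference that was not tested. IMPDH2 made up 66.4% ± 0.858 of the TPM of this pair in DMSO (SD, n = 2), 68.7% ± 0.725 at 2 h and 72.1% ± 0.499 at 6 h. CTPS2 was expressed at 5.68 ± 0.0125 TPM in DMSO, so that CTPS1 made up 91.1% ± 0.311 of that pair, and CTPS2 was not called at 6 h (-0.21 ± 0.212 SE, adjusted p = 0.477).

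The other genes of nucleotide metabolism were described by lists: 8 lists with 84 genes, of which 76 were tested. At 2 h 5 of them were called higher and 0 lower, beside 8.68% and 8.32% of all genes: PRPS2 (0.25), HPRT1 (0.25), UPP1 (0.41), DPYD (0.38) and RRM2 (0.22), of which PRPS2, HPRT1 and DPYD were named after their values were seen. The call of PRPS2 did not hold without DMSO replicate 1, 2 h replicate 1, 2 h replicate 2, 6 h replicate 1 or 6 h replicate 2 (adjusted p up to 0.170). The call of HPRT1 did not hold without DMSO replicate 1, 2 h replicate 1, 2 h replicate 2, 6 h replicate 1 or 6 h replicate 2 (adjusted p up to 0.237). The call of UPP1 did not hold without DMSO replicate 2 or 2 h replicate 1 (adjusted p up to 0.127). The call of RRM2 did not hold without 2 h replicate 1 (adjusted p of 0.0741). PRPS2 and HPRT1 were also not called at 2 h with library size alone as the scaling (adjusted p of 0.0599 and 0.0790 in edgeR). The same held in the fit of DMSO and 2 h alone (0.0590 and 0.0700). A looser filter and the DESeq2 test likewise ended the call of HPRT1. At 6 h 8 were called higher and 27 lower, beside 18.0% and 18.6% of all genes. Their median log2 change at 6 h was -0.18, against -0.50 for the 10 members. Of 9 other enzymes of purine synthesis 3 fell and 1 rose at 6 h: IMPDH1, GMPS, which makes GMP (-0.41 ± 0.0713 SE), and ADSS2, of the branch to AMP (-0.23 ± 0.0830 SE), fell, and PRPSAP1, which encodes a protein associated with ribose phosphate pyrophosphokinase, rose (0.38 ± 0.0956 SE). The call of ADSS2 was lost when either 6 h library was left out (adjusted p up to 0.158). ADSL, whose enzyme acts both in the middle of the purine branch and on the way to AMP, was not called at 6 h (-0.30 ± 0.161 SE, adjusted p = 0.143) and was named after its value was seen. Without DMSO replicate 1 it was called (-0.45, adjusted p = 0.0461), and it shares 18.9% of its exonic length with another gene.

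Salvage enzymes return free bases and nucleosides to the nucleotide pool. The counts of their calls stand beside 18.6% of all genes called lower at 6 h and 18.0% called higher. Of 12 purine salvage and breakdown genes 4 fell and 0 rose at 6 h (median -0.19), namely APRT (-0.38 ± 0.0748 SE), which salvages adenine, the AMP deaminases AMPD1 (-0.31 ± 0.0638 SE) and AMPD2 (-0.18 ± 0.0740 SE) and the phosphorylase PNP (-0.19 ± 0.0730 SE). The call of AMPD2 was lost without DMSO replicate 1 (adjusted p = 0.261) and that of PNP without DMSO replicate 2 (0.0881), and both were lost without any 1 of the treated libraries. Of 12 pyrimidine salvage and interconversion genes 3 fell and 3 rose (median 0.05). UCK2, a uridine-cytidine kinase, fell (-0.31 ± 0.0740 SE), as did the deaminase DCTD (-0.19 ± 0.0735 SE) and the cytosolic thymidine kinase TK1 (-0.22 ± 0.0805 SE), both named after their values were seen. In contrast, the uridine phosphorylase UPP1 (0.70 ± 0.114 SE), the mitochondrial thymidine kinase TK2 (1.07 ± 0.178 SE) and the deoxycytidine kinase DCK (0.27 ± 0.0901 SE) rose. TK2 shares 25% of its exonic length with other genes, each with at most 4 counts over all libraries. DCK lost its call without DMSO replicate 1 (adjusted p = 0.0864) or with either 6 h library left out (0.115 and 0.0862). In contrast to the 10 enzymes, UPP1 had 29.1 and 26.2 CPM in DMSO and 46.8 and 43.0 CPM at 6 h.

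Among genes of the steps around nucleotide synthesis, some lists had calls in both directions and others had falls alone. The counts stand beside 18.6% of all genes called lower at 6 h and 18.0% called higher. Of 8 deoxynucleotide genes 2 rose at 6 h, the ribonucleotide reductase subunits RRM2 (0.44 ± 0.0550 SE) and RRM2B (0.71 ± 0.0913 SE), and 2 fell, among them DUT (-0.19 ± 0.0746 SE). DUT lost its call without DMSO replicate 1 (0.0757), 2 h replicate 1 (0.0622), 2 h replicate 2 (0.0614) or 6 h replicate 2 (adjusted p = 0.398). Of 12 nucleoside mono- and diphosphate kinases 5 fell and 1 rose, with AK4 (-0.63 ± 0.124 SE) and NME1 (-0.58 ± 0.0956 SE) among the falls. The guanylate kinase GUK1 (-0.20 ± 0.0802 SE) also fell and the UMP-CMP kinase CMPK1 (0.20 ± 0.0643 SE) rose, both named after their values were seen. NME2 (-1.09 ± 0.326 SE) was called too, but not without DMSO replicate 2 (0.0615) or 6 h replicate 2 (adjusted p = 0.0638). NME1 and NME2 share 18.6% and 22.9% of their exonic length with the readthrough gene NME1-NME2, so their levels are uncertain. Of 12 genes of folate metabolism, which supplies the formyl groups used by GART and ATIC, 5 fell and 0 rose, among them MTHFD1L (-0.46 ± 0.0734 SE), ALDH1L2 (-0.39 ± 0.0716 SE) and MTHFD1 (-0.23 ± 0.0661 SE), the last not called without 6 h replicate 1 (adjusted p = 0.0849). The polyglutamate synthase FPGS also fell (-0.27 ± 0.0996 SE) and was named after its value was seen. The mitochondrial folate carrier SLC25A32 stood at -1.74 ± 0.468 SE from 3.35 ± 0.742 CPM in DMSO (SD, n = 2). It shares 80.8% of its exonic length with other genes, 69.7% with a gene of 0 counts and 11.1% with DCAF13 on the other strand. SLC25A32 was not called without DMSO replicate 2 or 6 h replicate 2. Of 7 pentose phosphate genes, which make the ribose phosphate, TKT (-0.47 ± 0.0560 SE), RPIA (-0.71 ± 0.101 SE) and RPE (-0.53 ± 0.110 SE) fell and PGD (0.17 ± 0.0636 SE) rose. RPE shares 23.8% of its exonic length with KANSL1L on the other strand, and PGD was not called without DMSO replicate 2 (0.0728) or any 1 treated library (adjusted p up to 0.180). Of 4 tested nucleoside transporters SLC29A1 (-0.76 ± 0.0680 SE) and SLC29A2 (-0.57 ± 0.134 SE) fell, the latter not without DMSO replicate 1 (adjusted p = 0.122). The call of DCTD did not hold without DMSO replicate 2, 2 h replicate 1, 2 h replicate 2, 6 h replicate 1 or 6 h replicate 2 (adjusted p up to 0.314). The call of TK1 did not hold without 6 h replicate 2 (adjusted p of 0.379). The call of GUK1 did not hold without DMSO replicate 1, 2 h replicate 1, 2 h replicate 2, 6 h replicate 1 or 6 h replicate 2 (adjusted p up to 0.525). The call of CMPK1 did not hold without 6 h replicate 1 or 6 h replicate 2 (adjusted p up to 0.112). The call of FPGS did not hold without DMSO replicate 1 or 6 h replicate 1 (adjusted p up to 0.323). Other scalings, filters or tests also ended the 6 h calls of ADSS2, PNP, AMPD2, DUT, DCTD, TK1, GUK1 and FPGS. The fit of DMSO and 6 h alone ended that of PGD (adjusted p = 0.0517).

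**Figure D4:**
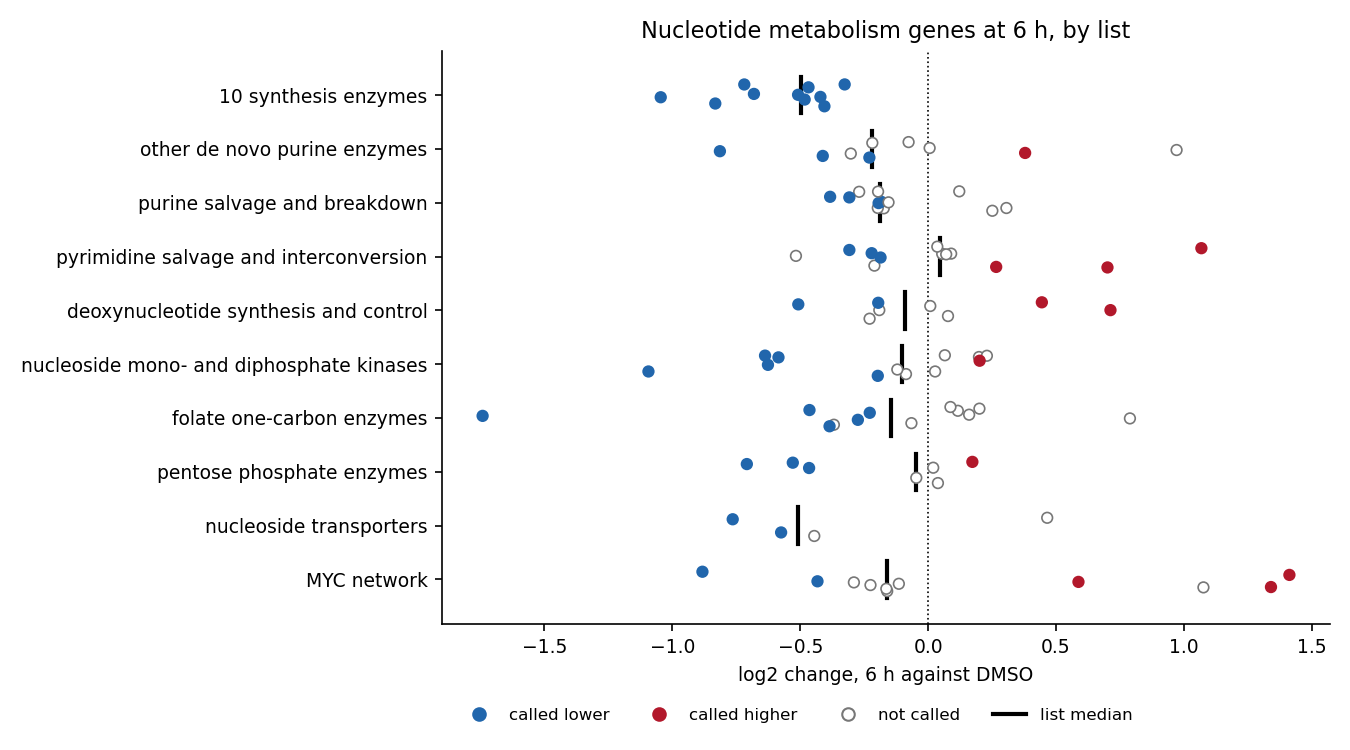
Log2 change at 6 h against DMSO (horizontal axis) for each tested gene of the 10 synthesis enzymes and of the other lists (rows, jittered vertically). Blue points were called lower, red points higher and open points were not called, and black bars are list medians. The 10 enzymes lie below 0 without exception, and the other lists hold points, called or not, on both sides of 0. Only falls were called in the purine salvage (4), folate (5) and transporter (2) lists. Genes of several other lists also lie within the range of the 10 enzymes. Among them are IMPDH1, GMPS, APRT, NME1, AK4, MTHFD1L, ALDH1L2, TKT, RPIA, RPE, SLC29A1, SLC29A2, MYC and MLX.

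MYC and its partners were measured beside the enzymes because several of the latter are known MYC targets. MYC was counted at 884 and 824 CPM in the DMSO libraries, 537 and 534 CPM at 2 h and 464 and 462 CPM at 6 h. MYC was called lower already at 2 h (-0.67 ± 0.0545 SE, adjusted p = 1.88e-13), and it was lower still at 6 h (-0.88 ± 0.0547 SE, adjusted p = 9.57e-18, and -0.21 ± 0.0546 SE, adjusted p = 0.00319 against 2 h). The call between 6 h and 2 h was lost without any 1 of the 4 treated libraries (adjusted p of 0.0532 to 0.0759). MAX, the partner that MYC needs to bind the E-box, was not called at 6 h (-0.11 ± 0.103 SE, adjusted p = 0.415). MXD1, which encodes a repressor that competes with MYC for MAX, was counted at 13.1 and 13.5 CPM in the DMSO libraries, 51.9 and 51.6 CPM at 2 h and 37.1 and 33.7 CPM at 6 h, and was called higher at 2 h (1.96 ± 0.121 SE, adjusted p = 2.54e-17) and 6 h (1.41 ± 0.123 SE, adjusted p = 4.84e-13). MXD3 (1.34) and MXD4 (0.59), of the same family, rose at 6 h. The other repressor partners of MAX in this list were not called at 6 h. MXD3 shares 40.2% of its exonic length with other genes, 22.3% with the strongly expressed PRELID1 on the other strand and 18% with RAB24. MXD4 was also called at 2 h (0.29), but not without DMSO replicate 2 (adjusted p = 0.377), 2 h replicate 1 (0.237), 2 h replicate 2 (0.103) or either 6 h library (up to 0.0746). Of the 11 genes of this list 3 rose and 2 fell at 6 h (median -0.16), beside 18.0% and 18.6% of all genes. The other fall was MLX (-0.43 ± 0.105 SE). MGA was called lower at 2 h (-0.27 ± 0.0737 SE), but not without 2 h replicate 1 or 2 h replicate 2. MLX and MGA were named after their values were seen. MYC protein and its binding at these genes were not measured, and the part of MYC or MXD1 in the fall of the enzymes was not tested.

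**Figure D5:**
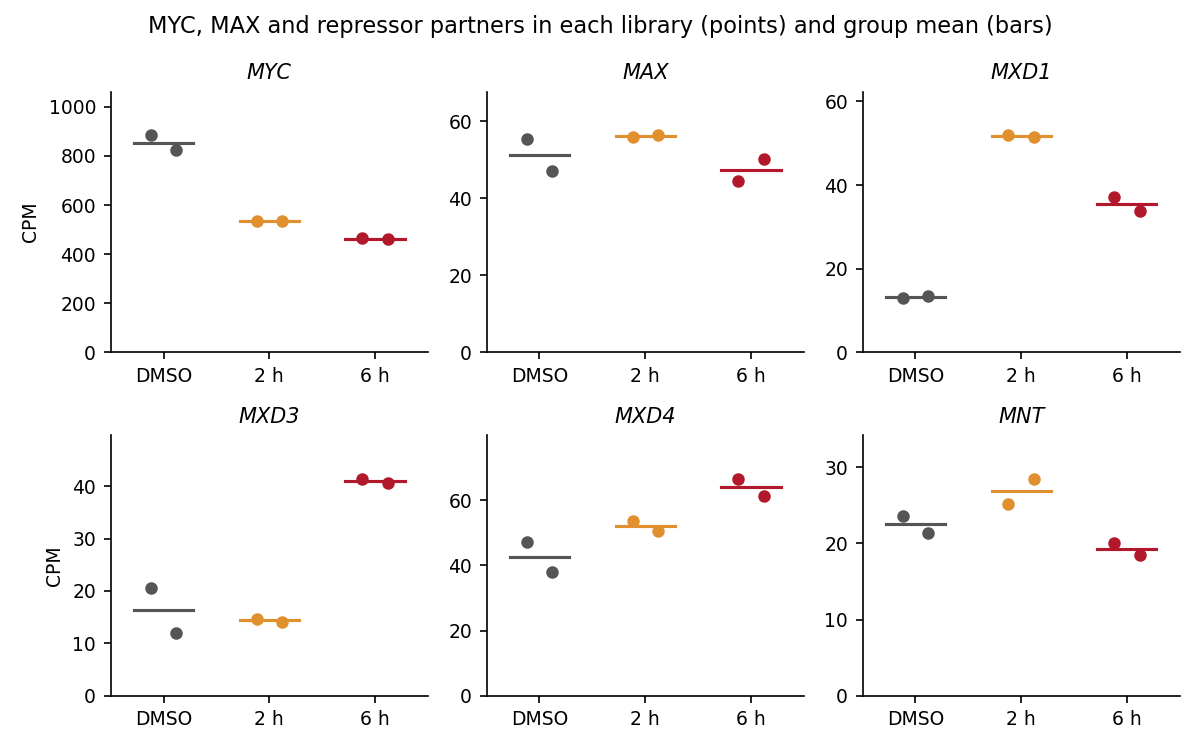
Level in CPM (vertical axes, each from 0) of MYC, MAX and 4 genes of repressor partners in DMSO, 2 h and 6 h. Points are libraries and bars are means of 2 libraries. MYC drops and MXD1 climbs by 2 h. MXD3 stands higher at 6 h, but not every repressor gene shown does.

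Among 9046 other genes averaging 10 CPM or more, the 5 whose log2 CPM over the 6 libraries lay nearest to the mean of the members, by Euclidean distance after centring each gene, were AIMP2 (distance 0.0535), LRP8 (0.0616), METTL1 (0.0648), PSME3 (0.0697) and HNRNPU (0.0741). Their log2 changes were between -0.18 and -0.12 at 2 h and between -0.62 and -0.55 at 6 h. These changes follow from the choice of genes, which used the same libraries. The members themselves lay further from their mean, at distances from 0.195 (IMPDH2) to 0.494 (DHODH).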

How the data were processed

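RNA was measured in 6 libraries of JJN3 cells. The deposited values are raw fragment counts per gene. Per the file headers, featureCounts 2.0.0 assigned them to GENCODE 34 genes with strand ignored and a mapping quality of at least 20. Per the submitters' processing notes, Trimmomatic and STAR were used with hg38, with no version stated. Reads shared by overlapping genes or near-identical copies are thus lost or ambiguous. PPAT and IMPDH2 share 2.22% and 3.35% of their exonic length with other genes, and the other 8 members none. A record broken over lines was rejoined, and 60415 of 60728 identifiers matched a symbol. Promoter sequences came from RefSeq (GRCh38.p14).

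Counts were fitted in R 4.3.3 with edgeR 4.0.16 (filterByExpr, TMM factors of 0.977 to 1.025, 1 mean per group, quasi-likelihood tests, all 6 libraries together). SEs come from the F statistic. The spread of a gene rested on 3 residual degrees of freedom of its own and 42.8 from all genes. The members and lists were chosen with earlier results of these data known. Named genes were the members, IMPDH1, CTPS2, MYC, MAX and, of each list, up to 4 called genes with the smallest adjusted p at 6 h and any called at 2 h with a log2 change of at least 0.5 in size, and 5 genes by likeness; 19 further genes were named after their values were seen, and the text says so for each. The results of some named genes are not reported here. Data for 6 h against DMSO were simulated for 15548 genes. Log2 changes of 0.3, 0.5 and 1 were given to 67, 67 and 66 genes of at least 4 CPM. Of these 26.9%, 70.1% and 90.9% were recovered, and 5 of 130 calls were false. Far fewer genes were changed than the 5693 called in the data. The share recovered in the data may therefore differ. Alternatives used DESeq2 1.42.0 and limma 3.58.1. Chi-square tests between the libraries of a group gave 3.61 to 8.97 per degree of freedom, so no library was counted as a repeat of another. Figures were drawn with matplotlib 3.10.9 in Python 3.11.15.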

Additional observations from a re-analysis of the deposited data

Results flagged for a closer look

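The change from DMSO differed between 6 h and 2 h, by the test of that difference (edgeR, 6 h against 2 h, which share no library), in all 10 enzymes and in 38 other named genes. Of all genes tested, 13.1% were called lower and 11.1% higher in this comparison. Most of the other named genes were picked by their calls at 6 h against DMSO or after their values were seen. Both comparisons use the 6 h libraries, so the count of 38 follows in part from that choice. In log2 units the change at 6 h minus that at 2 h was, in the purine branch, PPAT (-0.36), GART (-0.24), PFAS (-0.70), PAICS (-0.66), ATIC (-0.52) and IMPDH2 (-0.46). In the pyrimidine branch it was CAD (-0.52), DHODH (-0.58), UMPS (-0.25) and CTPS1 (-0.24). Of the other genes 30 were lower at 6 h than at 2 h. In purine synthesis these were PRPS2 (-0.24), ADSL (-0.47), ADSS2 (-0.23), IMPDH1 (-0.70) and GMPS (-0.27). In purine salvage they were HPRT1 (-0.43), APRT (-0.34), PNP (-0.27), AMPD1 (-0.28) and AMPD2 (-0.29). Among deoxynucleotide genes it was DUT (-0.38). The kinases were NME1 (-0.50), AK4 (-0.82) and GUK1 (-0.35). The folate genes were MTHFD1 (-0.29), MTHFD1L (-0.46), ALDH1L2 (-0.44) and FPGS (-0.26). The pentose phosphate genes were RPIA (-0.72), RPE (-0.31) and TKT (-0.55). Of pyrimidine salvage they were UCK2 (-0.33), TK1 (-0.27) and DPYD (-0.31). Of the transporters it was SLC29A1 (-0.65). Of the MYC network they were MYC (-0.21), MXD1 (-0.55) and MLX (-0.37). Of the plasma cell markers it was XBP1 (-0.21). Of the B cell markers it was PAX5 (-1.11). The 8 genes higher at 6 h than at 2 h were PRPSAP1 (0.33), UPP1 (0.29), TK2 (1.06), RRM2 (0.22), RRM2B (0.53), MXD3 (1.51), MXD4 (0.30) and SLAMF7 (1.00). Some of these calls depended on the processing. With library size alone as the scaling, those of PRPS2, ADSL, ADSS2, TK1, FPGS, RPE and XBP1 were lost, as were those of CTPS1, GART and UMPS. A looser filter ended those of UMPS, ADSS2, UPP1, FPGS and RPE, and the DESeq2 test those of UPP1 and FPGS. Some calls also rested on single libraries. The call of PRPSAP1 did not hold without 2 h replicate 2, 6 h replicate 1 or 6 h replicate 2 (adjusted p up to 0.175). The call of ADSL did not hold without 2 h replicate 2, 6 h replicate 1 or 6 h replicate 2 (adjusted p up to 0.209). The call of GMPS did not hold without 2 h replicate 1, 6 h replicate 1 or 6 h replicate 2 (adjusted p up to 0.138). The call of PNP did not hold without 2 h replicate 1 or 6 h replicate 2 (adjusted p up to 0.119). The call of AMPD2 did not hold without 6 h replicate 1 (adjusted p of 0.0610). The call of UCK2 did not hold without 2 h replicate 1 (adjusted p of 0.0724). The call of TK1 did not hold without 2 h replicate 2 or 6 h replicate 2 (adjusted p up to 0.258). The call of DPYD did not hold without 2 h replicate 1 or 6 h replicate 2 (adjusted p up to 0.111). The call of RRM2 did not hold without 2 h replicate 2 or 6 h replicate 2 (adjusted p up to 0.0651). The call of MLX did not hold without 2 h replicate 2 or 6 h replicate 1 (adjusted p up to 0.119). The call of SLAMF7 did not hold without 2 h replicate 1, 6 h replicate 1 or 6 h replicate 2 (adjusted p up to 0.142). The call of PAX5 did not hold without 2 h replicate 1 or 6 h replicate 1 (adjusted p up to 0.225). The calls of PRPS2, ADSS2, UPP1, FPGS, RPE, MXD4 and XBP1 did not hold without any 1 of the 4 treated libraries (adjusted p up to 0.192, 0.236, 0.332, 0.431, 0.189, 0.264 and 0.136, in this order).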

How the results depend on the processing

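All 10 members were called lower at 6 h than in DMSO under each of 17 alternatives (3 other scalings, 2 other filters, 2 other tests, robust estimation, fits restricted to 2 groups, a replicate block, a threshold of 0.01 and each library left out in turn), with the same sign throughout. Of the members' 170 values per comparison under the alternatives, 2 lost and 3 gained a call at 2 h, 15 lost a call in 6 h against 2 h, and 0 changed in 6 h against DMSO. Without 1 library, 1 to 3 members were called at 2 h, 10 in 6 h against DMSO and 7 to 10 in 6 h against 2 h. Genes called without 1 library ranged from 1458 to 2858 at 2 h (2642 with all), from 3950 to 5570 in 6 h against DMSO (5693) and from 2215 to 4638 in 6 h against 2 h (3772). At a threshold of 0.01, 1560 genes were called at 2 h. With 1 library in a group, that library is assumed to vary like the others. With the replicate number as a block 2658, 5686 and 3807 genes and 2, 10 and 10 members were called, and the block changed no call of a member. It ended the 6 h calls of AMPD2, DCTD and GUK1 (adjusted p of 0.0551, 0.0512 and 0.0502) and changed no other call of a named gene. No label says that a number marks a shared culture, and deviations of same-numbered libraries correlated at -0.0054, -0.0381 and -0.0205.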
